A study of Arabidopsis thaliana with 18 samples.

Results

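The genes described here are nuclear genes of *Arabidopsis thaliana* whose transcript level in the seed coat and endosperm was much lower at 13 DAP (days after pollination) than at 11 DAP in WT seeds kept warm, but close to the 11 DAP level in WT seeds that spent the same 48 h in cold. Counts per gene were divided by the library total and given as CPM, which puts all libraries on a common total, and L is the log2 of a group mean in CPM plus 1. A member had L at 13 DAP at least 2 below L at 11 DAP, and L after 48 h of cold no more than 0.5 below L at 11 DAP. Its 3 WT 13 DAP libraries also had to lie under its 3 WT 48 h cold libraries. Of 37861 nuclear genes, 420 met the age limit, 79 of these were members and the other 341 were not. The members were thus chosen on the WT 13 DAP, WT 48 h cold and WT 11 DAP values, which are given below as a description without a test.

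RNA came from dissected seed coats with endosperm of *myb107-2* seeds 48 h after transfer to cold at 11 DAP, *myb107-2* seeds at 11 DAP, WT seeds at 13 DAP, WT seeds that had spent 48 h or 6 h in cold from 11 DAP on, and untransferred WT seeds at 11 DAP. Each of these 6 groups had 3 libraries. All plants were Col, the warm groups were kept at 22 °C, and the labels give 13 °C for the cold treatment, while the study's main text gives a lower temperature. *myb107-2* carries a T-DNA insertion in *MYB107*, a MYB transcription factor gene of seed coat barrier formation, and is a single mutant line. Each library pooled siliques of several plants, so a p-value measures the spread between these pools, which may be technical. Seeds at 48 h of cold were as old as 13 DAP seeds, and no warm-grown *myb107-2* seeds of the same age were analysed here. In such bulk tissue, fewer cells of a type and less RNA per cell cannot be told apart.

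Seeds at 11 and 13 DAP are in the early part of the mature green stage of *Arabidopsis* seed development. Around this stage the cells of the seed coat specialise, the endosperm is reduced to a thin layer, and the embryo fills with reserves that the seed coat passes on as sugars and amino acids. Low temperature slows plant development, and it also changes the amplitude of the circadian clock, a loop of transcription factors in which *LHY* and *CCA1* are the morning components.

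Library totals ranged from 43.1 M to 84.0 M counts. *MYB107* had 4.09 to 5.30 CPM in *myb107-2* and 44.1 to 64.6 CPM in WT after 48 h of cold, and 2.80 to 4.42 CPM in *myb107-2* and 32.0 to 41.6 CPM in WT at 11 DAP. Genes of the ribosomal RNA units took 47.0% of the counts in replicate 1 of WT 13 DAP, and between 6.00% and 16.5% in the other 17 libraries. The summed level of 10 seed coat markers was 1699 to 2928 CPM after 48 h of cold, 792 to 2056 CPM at 13 DAP and 3316 to 3908 CPM at 11 DAP in WT, and none of them was at 0 throughout. Of these 10, 4 met the age limit and 1, *PER36*, was a member. The 10 endosperm markers, a sum that *EPR1* dominated, had 14211 to 23073 CPM after 48 h of cold, 13155 to 27013 CPM at 13 DAP and 14226 to 17783 CPM at 11 DAP in WT. Of the 10 embryo meristem markers, 9 averaged under 1 CPM and *WUS* and *CUC2* were at 0 in every library. Of the 6 silique wall markers, 2 averaged under 1 CPM and none was at 0 throughout. Their sum, most of it *SHP2*, was 314 to 419 CPM after 48 h of cold, 103 to 205 CPM at 13 DAP and 252 to 323 CPM at 11 DAP in WT, lowest at 13 DAP like the members, and 0 of the 6 met the age limit. The part of the seed coat, embryo meristem and silique wall markers in the differences with age was not tested.

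In WT seeds, the members as a group were on at 11 DAP, still on after 48 h of cold, and low at 13 DAP. The median member had 55.1 CPM after 48 h of cold, 7.11 CPM at 13 DAP and 54.7 CPM at 11 DAP, taken over group means. Together the 79 genes made up 2.77% to 3.59% of the counts in the 48 h cold libraries, 0.394% to 0.894% in the 13 DAP libraries and 3.09% to 3.51% in the 11 DAP libraries. The 13 DAP mean of a member was a median of 17.4% of its 11 DAP mean, and the 48 h cold mean a median of 92.3%. The difference in L between 13 DAP and 11 DAP ran from -4.36 to -2.001 with a median of -2.30, and 10 members were at or under -3. The difference in L between 48 h cold and 11 DAP ran from -0.47 to 1.56 with a median of -0.11, and 72 of 79 lay within 0.5 of no difference. The 7 members above that were AT2G25890 (1.56), *BT5* (1.07), *SCRL7* (0.91), *CCA1* (0.84), *IAA27* (0.82), *LNK3* (0.62) and *NSP1* (0.50). In 77 of 79 members all 3 libraries at 13 DAP still had counts.

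**Figure D1:**
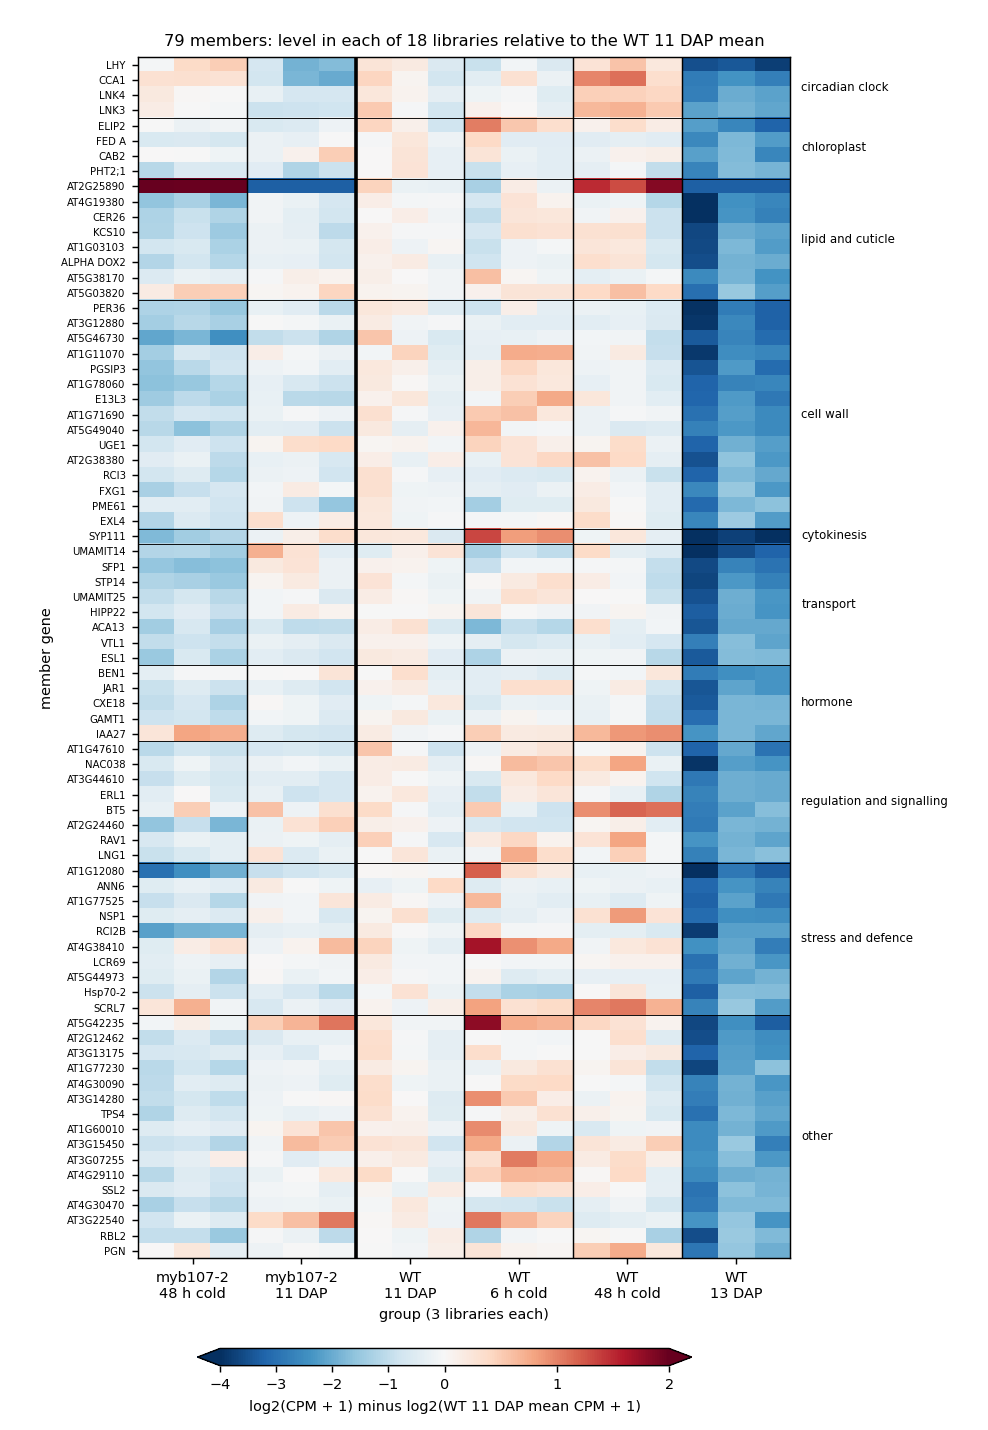
Level of the 79 members (rows, grouped by role) in each of the 18 libraries (columns), as log2(CPM + 1) minus log2(WT 11 DAP mean CPM + 1), with blue lower and red higher than WT 11 DAP. The 3 WT 13 DAP libraries are blue throughout, as the selection required, and the *myb107-2* 48 h cold libraries, which the selection did not use, are pale to mid blue for most rows and near white or pale red for the 4 clock genes.

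The limits are sharp lines through a continuous distribution. The members nearest to the age limit were *LNG1* (-2.001), a gene of polar cell elongation, *EXL4* (-2.017) of the EXORDIUM-like family and *PHT2;1* (-2.027), a chloroplast phosphate transporter. AT3G06890 (-1.996), *EXT3* (-1.996) and *PGL4* (-1.994) lay just outside. At the cold limit, *RCI2B* (-0.47), AT4G19380 (-0.46) and *VTL1* (-0.46) lay just inside, and AT2G25450 (-0.50), *GUN5* (-0.51) and *PEP7* (-0.51) just outside. The condition on replicates removed 0 genes.

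The size of the group depended on the scaling and on replicate 1 of WT 13 DAP, the library with 47.0% ribosomal RNA unit counts. With column sums, the median of 17282 genes was 0.40 lower at 13 DAP than at 11 DAP on the log2 scale, and with TMM scaling (edgeR's trimmed mean of M values) it was 0.02 higher. Under TMM scaling 33 genes met the rule, all of them among the 79, and under column sums without the 9 ribosomal RNA unit genes 58 did, 57 of them among the 79. Without replicate 1 of WT 13 DAP, 47 genes met it, 46 of them among the 79. All 79 members were still lower at 13 DAP than at 11 DAP under TMM scaling, with differences in L from -3.95 to -1.49 and a median of -1.91. The 33 include *SYP111*, *UMAMIT14*, *LHY*, *CCA1* and AT1G12080, but not the 4 chloroplast genes.

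**Figure D2:**
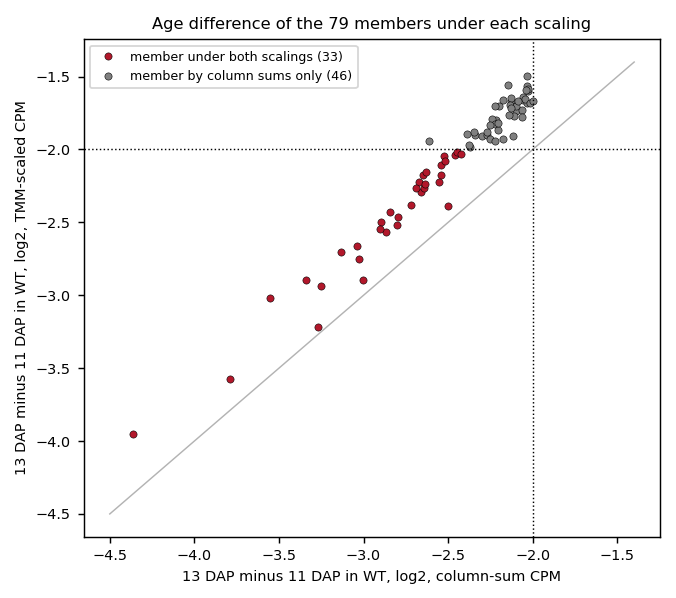
Difference in L between WT 13 DAP and WT 11 DAP for each of the 79 members (points) under column-sum CPM (horizontal axis) and TMM-scaled CPM (vertical axis), both in log2 units, with dotted lines at the limit of -2 and the diagonal in grey. The points lie above the diagonal, and 33 stay at or under -2 on the vertical axis.

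Whether the members also stayed on in cold in a second genotype was asked in *myb107-2*, none of whose libraries entered the selection. Here the members leaned lower in cold, but few by as much as the size limit of a call. Between *myb107-2* at 48 h cold and *myb107-2* at 11 DAP, 12 of the 79 members were called lower and 4 higher by edgeR's quasi-likelihood test, with calls made at an adjusted p of 0.05 or less and a log2FC (log2 fold change) of 1 or more in either direction. Over all 26068 genes tested, 3.83% were called lower and 4.14% higher. Among the 341 other genes that met the age limit, 257 (75.4%) were called lower and 1 was called higher. The share called lower was 15.2% for the members. Without the size limit, 64 of the 79 members had a difference under 0, against 12698 of all 26068 genes, and 44 members had an unadjusted p under 0.05, against 315 of the 341 others and 7731 of all genes. The median log2FC was -0.39 for the members, -1.69 for the 341 other genes and 0.00 for all genes. The 95% interval of the fold change lay above -1 for 49 of the 79 members and 21 of the 341 others, and wholly under -1 for 4 members and 178 others.

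The 4 members called higher were *LHY*, *CCA1*, *IAA27* and AT2G25890. The 12 called lower were AT2G24460, *SFP1*, *RCI2B*, AT1G12080, *SYP111*, AT5G46730, *UMAMIT14*, *STP14*, AT3G15450, AT3G22540, AT4G19380 and AT3G12880. In CPM, 42 of the 79 members had all 3 *myb107-2* 48 h cold libraries under all 3 *myb107-2* 11 DAP libraries, against 312 of the 341 others and 22.8% of 24576 genes with counts. When the *myb107-2* 48 h cold libraries were set beside WT 13 DAP, the group of the same age without cold, 77 of 79 members were higher in all 3 libraries, against 196 of the 341 others and 30.0% of 24623 genes. The exceptions were AT1G12080, with a lowest value of 82.5 CPM in *myb107-2* cold and a highest value of 89.8 CPM in WT 13 DAP, and *RCI2B*, with 20.76 CPM and 20.77 CPM. WT 13 DAP values were used to choose the members, so the counts against WT 13 DAP are a description.

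In *myb107-2*, the seed coat markers summed to 2084 to 2274 CPM after 48 h of cold and 2557 to 3744 CPM at 11 DAP, with 3 of 10 called lower. The endosperm markers summed to 19714 to 22225 CPM after 48 h of cold and 12367 to 18916 CPM at 11 DAP, with 2 of 10 called lower. The silique wall markers summed to 335 to 400 CPM after 48 h of cold and 265 to 288 CPM at 11 DAP, with 1 of 6 called higher. The part of these shifts in the members' calls was not tested.

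**Figure D3:**
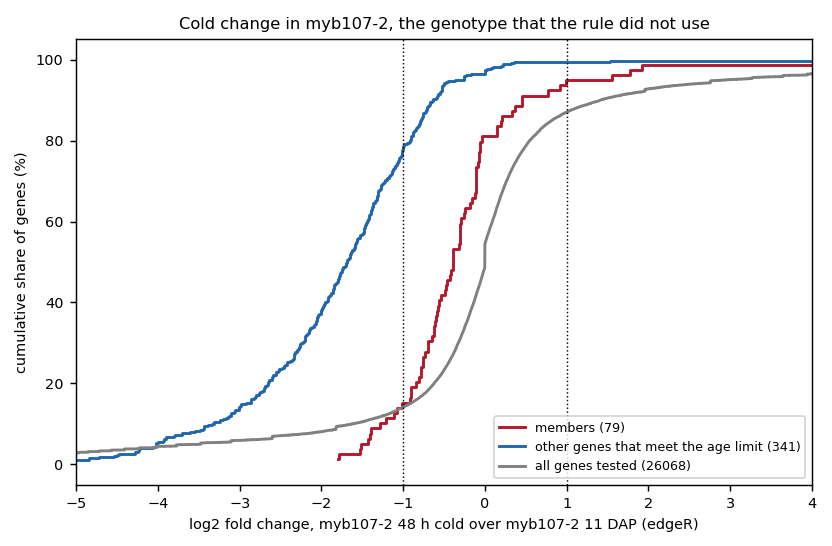
Cumulative share of genes (%) against the log2FC of *myb107-2* 48 h cold over *myb107-2* 11 DAP (edgeR), for the 79 members, the 341 other genes that met the age limit and all 26068 genes tested, with dotted lines at -1 and 1. The median of the members, at -0.39, lies between that of all genes, at 0.00, and that of the 341 others, at -1.69. No member lies under -1.79, where the other curves run above that of the members.

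Of the genes with a role in the circadian clock, 4 were members: *LHY* and *CCA1*, MYB-related repressors that peak at dawn, and *LNK3* and *LNK4*, of the night light-inducible and clock-regulated family. *LNK3* and *LNK4* are named here after their values were seen. The 250 bases before the annotated start of each are shown because these genes moved together. They were read from TAIR10.1 on the strand of the gene, with the CACGTG element, also called the G-box, in capitals, and run from base 250 before the start to base 1.
LHY, chr1:37872-38121, minus strand: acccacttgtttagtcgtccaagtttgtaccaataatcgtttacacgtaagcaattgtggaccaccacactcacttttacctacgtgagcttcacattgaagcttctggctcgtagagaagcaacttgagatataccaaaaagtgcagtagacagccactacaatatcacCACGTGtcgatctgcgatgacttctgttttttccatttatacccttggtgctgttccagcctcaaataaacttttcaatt
CCA1, chr2:19245341-19245590, plus strand: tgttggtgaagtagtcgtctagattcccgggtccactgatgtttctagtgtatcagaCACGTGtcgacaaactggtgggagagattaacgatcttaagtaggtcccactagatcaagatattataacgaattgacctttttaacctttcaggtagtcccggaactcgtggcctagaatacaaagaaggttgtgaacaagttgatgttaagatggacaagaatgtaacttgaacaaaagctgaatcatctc
LNK3, chr3:3923265-3923514, plus strand: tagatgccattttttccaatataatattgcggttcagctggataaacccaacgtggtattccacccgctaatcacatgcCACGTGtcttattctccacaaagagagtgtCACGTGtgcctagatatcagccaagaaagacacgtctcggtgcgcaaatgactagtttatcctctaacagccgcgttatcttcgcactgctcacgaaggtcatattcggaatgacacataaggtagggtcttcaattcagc
LNK4, chr5:2166870-2167119, plus strand: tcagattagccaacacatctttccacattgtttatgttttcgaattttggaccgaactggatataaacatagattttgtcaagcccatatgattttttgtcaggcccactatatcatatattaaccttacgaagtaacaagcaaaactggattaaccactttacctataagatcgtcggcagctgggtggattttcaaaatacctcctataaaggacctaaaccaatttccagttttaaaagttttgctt
The element starts 80 bases before the annotated start in *LHY*, 193 bases before it in *CCA1*, and 171 and 141 bases before it in *LNK3*, and these letters are not in the *LNK4* window. The evening element AAATATCT was in none of these 4 windows. A match is a description of letters, not of binding.

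*LHY* had 91.8, 113 and 87.4 CPM after 48 h of cold, 5.74, 6.24 and 4.63 CPM at 13 DAP, and 90.7, 85.6 and 50.9 CPM at 11 DAP in WT. The 48 h cold mean was 17.6-fold the 13 DAP mean. In *myb107-2*, *LHY* had 72.3, 99.0 and 107 CPM after 48 h of cold, against 46.7, 19.6 and 22.2 CPM at 11 DAP. The cold and 11 DAP libraries of the mutant did not overlap, and *LHY* rose by a log2FC of 1.78 (SE 0.25, adjusted p = 0.0001, edgeR). *CCA1* had 65.1, 70.8 and 41.7 CPM after 48 h of cold, 3.88, 5.38 and 4.02 CPM at 13 DAP and 44.5, 34.0 and 19.4 CPM at 11 DAP in WT. The *myb107-2* values were 40.3, 41.0 and 39.9 CPM after 48 h of cold, against 19.0, 8.44 and 7.39 CPM at 11 DAP. Again the groups of the mutant did not overlap, and *CCA1* rose by 1.92 on the log2 scale (SE 0.31, adjusted p = 0.00038, edgeR). At 11 DAP, *LHY* was lower in *myb107-2* than in WT by a log2FC of -1.48 (adjusted p = 0.0057, edgeR) and *CCA1* by -1.60 (adjusted p = 0.016, edgeR), in a comparison whose WT libraries were used in the selection. The *CCA1* call was lost without replicate 1 of WT 11 DAP and without replicate 2 or 3 of *myb107-2* 11 DAP, where the adjusted p reached up to 0.098. At 48 h of cold the genotypes differed by -0.04 in *LHY* (adjusted p = 1.0) and -0.50 in *CCA1* (adjusted p = 0.51, both edgeR).

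*LNK3* followed the same order at a smaller size. It had 104, 108 and 95.1 CPM after 48 h of cold, 14.3, 17.0 and 14.8 CPM at 13 DAP, and 94.9, 64.2 and 39.1 CPM at 11 DAP in WT, where the 11 DAP libraries spread widely. In the mutant it had 73.7, 65.3 and 61.9 CPM after 48 h of cold, against 36.3, 37.2 and 37.6 CPM at 11 DAP, a log2FC of 0.998 that missed the size limit (adjusted p = 0.0054, edgeR). *LNK4* had 40.4, 39.9 and 38.5 CPM after 48 h of cold, 3.45, 6.45 and 5.81 CPM at 13 DAP and 33.7, 30.3 and 22.2 CPM at 11 DAP in WT, and in *myb107-2* its log2FC with cold was 0.77 (adjusted p = 0.0029, edgeR). Of the 18 clock genes on the list, which does not hold *LNK3* and *LNK4*, 2 met the age limit, and both were members. In *myb107-2*, 6 of the 18 were called higher in cold and 0 lower, with a list median of 0.62 against 0.00 over all genes. The hour of collection is not given in the sources used here, and its part in these values was not tested.

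**Figure D4:**
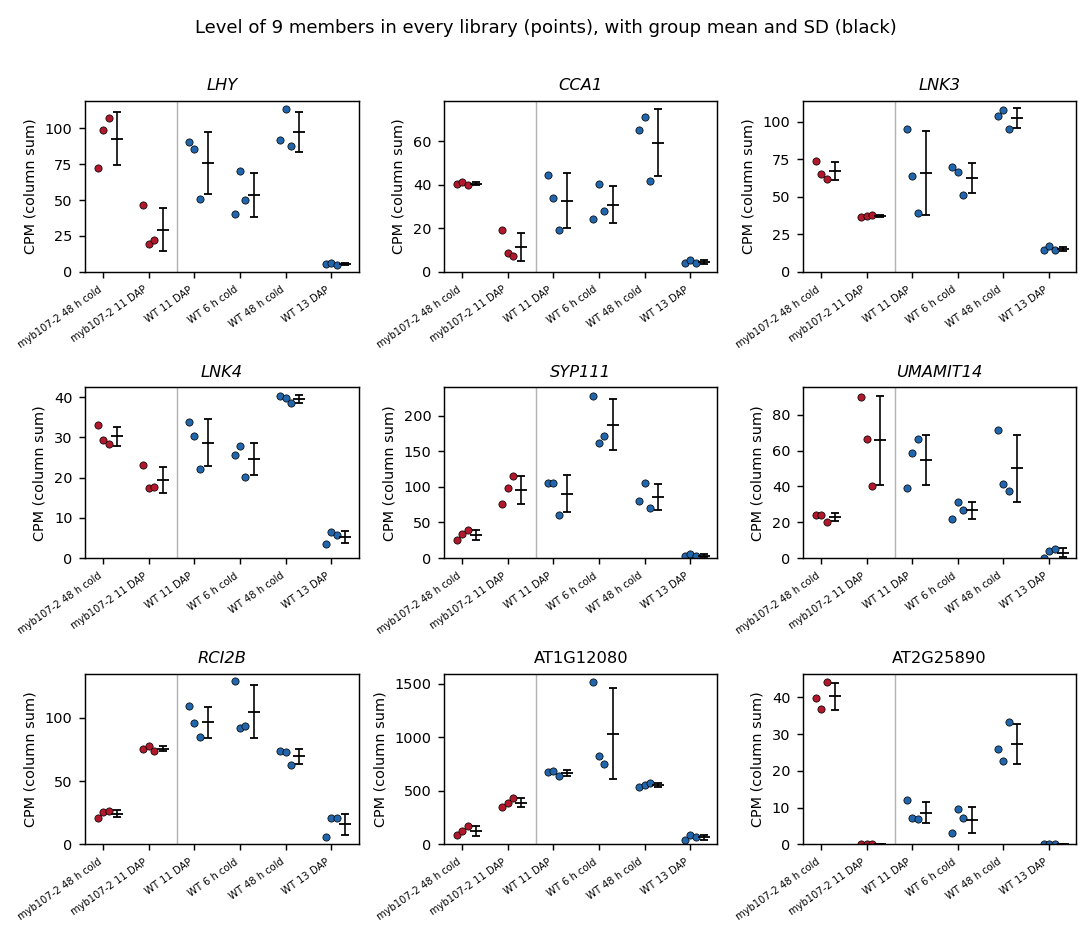
Level in CPM (column sums) of 9 members in every library (points, *myb107-2* in red and WT in blue), with the group mean and SD in black. *LHY*, *CCA1*, *LNK3* and *LNK4* are higher in *myb107-2* cold than in *myb107-2* at 11 DAP, *SYP111*, *UMAMIT14*, *RCI2B* and AT1G12080 are lower, and AT2G25890 is at 0 in both *myb107-2* 11 DAP and WT 13 DAP.

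None of the 4 chloroplast members was called in *myb107-2* cold. *CAB2* encodes a light-harvesting chlorophyll a/b-binding protein, *ELIP2* an early light-inducible protein, *FED A* a ferredoxin and *PHT2;1* a phosphate transporter. *CAB2* had 634, 793 and 815 CPM after 48 h of cold, 166, 217 and 121 CPM at 13 DAP and 752, 893 and 601 CPM at 11 DAP in WT. Its *myb107-2* libraries gave 755, 740 and 665 CPM after 48 h of cold, against 631, 795 and 1050 CPM at 11 DAP, with overlapping groups and a log2FC of -0.06 (95% interval -0.45 to 0.33, edgeR). In *CAB2*, 20.5% of the 50-base stretches of the exons occur elsewhere in the genome, so reads may be shared with its close copies. The other 3 had mutant cold differences between -0.31 and 0.45. The lowest was *FED A*, whose mutant cold libraries, at 212, 217 and 203 CPM, all lay under the 281, 260 and 324 CPM at 11 DAP (adjusted p = 0.075, edgeR). On the list of 33 nuclear photosynthesis genes, 7 met the age limit and *CAB2* was the only member. Of that list, 17 were called lower in *myb107-2* cold and 0 higher, with a median log2FC of -1.08.

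Genes of lipid and cuticle metabolism gave 8 members. By CPM, which is not corrected for gene length, AT5G38170, which encodes a protein of the lipid-transfer and 2S albumin superfamily, was the most abundant member. It had 5552, 6139 and 7024 CPM after 48 h of cold, 1266, 2041 and 1411 CPM at 13 DAP and 8016, 7356 and 6681 CPM at 11 DAP in WT. In *myb107-2* it had 5056, 6117 and 5706 CPM after 48 h of cold, against 7072, 7948 and 7748 CPM at 11 DAP. The mutant groups did not overlap, but the difference of -0.31 was not called (adjusted p = 0.32, edgeR, TMM scaling). AT1G03103, of the same superfamily, had 2415, 2362 and 1347 CPM after 48 h of cold, 166, 581.7 and 435 CPM at 13 DAP and 2248, 1783 and 2095 CPM at 11 DAP in WT. *CER26*, an acyltransferase-family gene of cuticular wax elongation, had 1303, 1532 and 786 CPM after 48 h of cold, 76.6, 283 and 219 CPM at 13 DAP and 1453, 1575 and 1295 CPM at 11 DAP in WT. In AT1G03103 and *CER26*, as in *KCS10*, a 3-ketoacyl-CoA synthase gene also known as *FIDDLEHEAD*, replicate 3 of WT 48 h cold was the lowest of its group. *CER26* did not pass the test in *myb107-2* cold (log2FC -0.57, adjusted p = 0.059, edgeR).

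AT4G19380, of the long-chain fatty alcohol dehydrogenase family, was the only lipid gene called lower in *myb107-2* cold. It had 79.6, 97.2 and 66.6 CPM in *myb107-2* after 48 h of cold, against 216, 198 and 150 CPM at 11 DAP, a log2FC of -1.08 (adjusted p = 0.0026, edgeR). AT2G25890, an oleosin-family gene, went the other way. It was at 0 counts in all 3 libraries of WT 13 DAP and of *myb107-2* 11 DAP, had 39.9, 36.9 and 44.3 CPM in *myb107-2* after 48 h of cold, and 26.0, 22.7 and 33.3 CPM after 48 h of cold and 12.04, 7.07 and 6.77 CPM at 11 DAP in WT. Against a floor of 3 counts per library, the *myb107-2* cold mean was at least 879-fold higher than at 11 DAP, and the gene was called (adjusted p = 6.9e-08, edgeR). All 877 bases of AT2G25890 (chr2:11037303-11038179, TAIR10.1) lie inside *AUR2* on the other strand, and the counting is not stated to have used strand. *AUR2* had 22.6, 24.4 and 29.4 CPM in *myb107-2* at 11 DAP and 56.5, 78.0 and 67.5 CPM in WT 13 DAP, the groups in which AT2G25890 was at 0, and 10.7, 9.60 and 11.1 CPM in *myb107-2* after 48 h of cold. How reads were divided between the 2 genes was not tested, and the zeros are uncertain for that reason.

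Genes of the cell wall gave 15 members, the most of any named role, of which 2 were called lower and 0 higher in *myb107-2* cold. *PER36*, a peroxidase gene needed for mucilage extrusion from the seed coat epidermis, had 24.5, 23.3 and 19.4 CPM after 48 h of cold, 0.912, 3.29 and 2.18 CPM at 13 DAP and 33.9, 32.5 and 19.8 CPM at 11 DAP in WT. The *myb107-2* values were 11.7, 11.9 and 9.51 CPM after 48 h of cold, against 23.4, 20.5 and 13.0 CPM at 11 DAP, without overlap and without a call (log2FC -0.65, adjusted p = 0.061, edgeR). AT3G12880, of the invertase and pectin methylesterase inhibitor superfamily, had 76.0, 91.0 and 80.3 CPM in *myb107-2* after 48 h of cold, against 194, 186 and 166 CPM at 11 DAP. It was called with a log2FC of -1.01 (SE 0.13, adjusted p = 5.8e-05, edgeR), just past the size limit, and lost the call without replicate 2 of *myb107-2* 11 DAP or replicate 3 of *myb107-2* 48 h cold (log2FC of -0.94 in the smaller case). AT5G46730, which encodes a glycine-rich protein, was the other cell wall gene called lower, at 1.47, 1.90 and 0.898 CPM in *myb107-2* cold against 4.198, 4.73 and 3.47 CPM at 11 DAP.

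*UGE1*, a UDP-glucose 4-epimerase gene that supplies galactose for wall polymers, had 1152, 1426 and 946 CPM after 48 h of cold, 120, 292 and 239 CPM at 13 DAP and 1128, 1161 and 1021 CPM at 11 DAP in WT. In *myb107-2*, *UGE1* had 656, 811 and 626 CPM after 48 h of cold, against 1141, 1400 and 1460 CPM at 11 DAP, a log2FC of -0.81 that missed the size limit (adjusted p = 0.0027, edgeR). The peroxidase gene AT2G38380 had 3513, 3111 and 1846 CPM after 48 h of cold, 210, 772 and 478 CPM at 13 DAP and 2574, 1895 and 2584 CPM at 11 DAP in WT. In *myb107-2* its groups overlapped, with 1725, 1955 and 1147 CPM after 48 h of cold against 1905, 2014 and 1519 CPM at 11 DAP (log2FC -0.03, adjusted p = 1.0, edgeR). Across the 15 genes the mutant cold difference ran from -1.41 to 0.37, with a median of -0.79.

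*SYP111*, also known as *KNOLLE*, encodes the syntaxin that fuses vesicles into the cell plate during cytokinesis, and it had the lowest age difference of all members. It had 80.3, 106 and 70.1 CPM after 48 h of cold, 2.21, 5.87 and 2.22 CPM at 13 DAP and 106, 105 and 60.1 CPM at 11 DAP in WT. The 48 h cold mean was 24.9-fold the 13 DAP mean. In the mutant it had 25.6, 33.7 and 39.5 CPM after 48 h of cold, against 75.7, 97.9 and 115 CPM at 11 DAP. There *SYP111* fell, by a log2FC of -1.43 (SE 0.20, adjusted p = 0.00014, edgeR), while its 3 mutant cold libraries still lay above the 3 WT 13 DAP libraries. *SYP111* lies at chr1:2709525-2711000 on the minus strand and shares 464 bases with *NPQ1* on the other strand. On the list of 23 cell division genes, 4 met the age limit and *SYP111* alone was a member. Of the 23, 6 were called lower in *myb107-2* cold and 0 higher.

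The 8 transport members carry sugars, amino acids, iron, calcium and other metals. *UMAMIT14*, an amino acid transporter gene of seed loading, had 71.7, 41.3 and 37.5 CPM after 48 h of cold, 0.282, 3.80 and 5 CPM at 13 DAP and 39.2, 58.7 and 66.3 CPM at 11 DAP in WT. Its *myb107-2* libraries gave 23.8, 24.3 and 20.3 CPM after 48 h of cold, against 90.2, 66.7 and 40.2 CPM at 11 DAP, and it fell by a log2FC of -1.39 (SE 0.29, adjusted p = 0.0033, edgeR). *SFP1*, of the sugar-porter group of the major facilitator superfamily, had 5.71, 4.97 and 5.29 CPM in *myb107-2* after 48 h of cold, against 21.5, 22.8 and 15.7 CPM at 11 DAP, and fell by 1.78 (SE 0.23, adjusted p = 6.2e-05, edgeR). In WT, *SFP1* had 18.1, 17.4 and 9.13 CPM after 48 h of cold, 0.614, 2.08 and 1.52 CPM at 13 DAP and 19.8, 19.5 and 16.4 CPM at 11 DAP. The sugar transporter gene *STP14* was the other transport gene called lower in *myb107-2* cold, with a log2FC of -1.28 (adjusted p = 0.0021, edgeR).

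*UMAMIT25*, a second amino acid transporter gene, had 1715, 1671 and 918 CPM after 48 h of cold, 150, 436 and 342 CPM at 13 DAP and 1885, 1728 and 1502 CPM at 11 DAP in WT. In *myb107-2* it had 856, 1052 and 791 CPM after 48 h of cold, against 1580, 1648 and 1131 CPM at 11 DAP, without overlap and without a call (log2FC -0.56, adjusted p = 0.095, edgeR). All 8 transport genes had a mutant cold difference under 0, from -1.78 to -0.11. Of 24 sugar and amino acid transport genes on the list, 5 met the age limit and 2 were members. In *myb107-2* cold, 5 of the 24 were called lower and 2 higher.

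Hormone genes gave 5 members, of which 1 was called. *IAA27*, an Aux/IAA repressor gene of the auxin response, had 13.0, 15.2 and 16.0 CPM after 48 h of cold, 0.746, 1.52 and 1.13 CPM at 13 DAP and 8.99, 7.16 and 7.58 CPM at 11 DAP in WT. The *myb107-2* values were 9.50, 14.4 and 13.7 CPM after 48 h of cold, against 5.24, 4.49 and 4.18 CPM at 11 DAP. *IAA27* rose there by 1.56 on the log2 scale (SE 0.19, adjusted p = 2.5e-05, edgeR), and shares 41 bases with AT4G29070 on the other strand. The other 4 were *GAMT1*, which inactivates gibberellins by methylation, *JAR1*, which conjugates jasmonate to isoleucine, *BEN1* of brassinosteroid metabolism and the carboxylesterase-like gene *CXE18*. Their mutant cold differences lay between -0.62 and -0.11, with no call. On the list of gibberellin and abscisic acid genes, 0 of 20 met the age limit, and 0 of the 18 tested were called in *myb107-2* cold.

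The 8 members in regulation and signalling include *NAC038* and *RAV1*, transcription factor genes, *ERL1*, a receptor kinase gene of the ERECTA family, and *BT5*, which encodes a BTB and TAZ domain protein. AT2G24460, annotated as a RING finger protein gene, was the only one called in *myb107-2* cold, with 2.01, 3.76 and 1.54 CPM against 6.49, 10.02 and 11.6 CPM at 11 DAP (log2FC -1.79, adjusted p = 0.00064, edgeR). *LNG1* had 13.2, 20.1 and 13.3 CPM after 48 h of cold, 1.31, 3.29 and 3.80 CPM at 13 DAP and 13.9, 16.9 and 11.7 CPM at 11 DAP in WT, and its mutant groups overlapped.

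Of 10 stress and defence members, 2 were called lower in *myb107-2* cold. *RCI2B* (chr3:1757440-1758807, minus strand), which encodes a small membrane protein known to be induced by cold and salt, had 73.5, 72.7 and 62.6 CPM after 48 h of cold, 6.02, 20.8 and 20.5 CPM at 13 DAP and 109, 95.7 and 84.8 CPM at 11 DAP in WT. In the mutant it had 20.8, 25.4 and 26.2 CPM after 48 h of cold, against 75.1, 77.6 and 73.7 CPM at 11 DAP, a log2FC of -1.52 (SE 0.13, adjusted p = 9.9e-07, edgeR). AT1G12080 (chr1:4084162-4085185, plus strand), annotated as a vacuolar calcium-binding protein-like gene, had 538, 554 and 575 CPM after 48 h of cold, 37.7, 89.8 and 66.0 CPM at 13 DAP and 676, 679 and 633 CPM at 11 DAP in WT. Its *myb107-2* libraries gave 82.5, 120 and 174 CPM after 48 h of cold, against 347, 385 and 435 CPM at 11 DAP, and fell by 1.52 on the log2 scale (SE 0.18, adjusted p = 2.1e-05, edgeR). These are the 2 members whose mutant cold libraries were not all above WT 13 DAP.

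The other 8 stress and defence genes were not called in the mutant. Of these, *SCRL7* (log2FC 0.91, adjusted p = 0.0068, edgeR) and AT1G77525 (log2FC -0.75, adjusted p = 0.0057, edgeR) missed only the size limit. All 562 bases of *SCRL7* lie inside AT1G60990 on the other strand, and how reads were divided between these genes was not tested. *LCR69*, a plant defensin gene also known as *PDF2.2*, had 3329, 3419 and 3438 CPM after 48 h of cold, 411, 854 and 637 CPM at 13 DAP and 3662, 3015 and 3023 CPM at 11 DAP in WT. In *myb107-2* it had 2400, 2791 and 2599 CPM after 48 h of cold, against 3255, 3046 and 2923 CPM at 11 DAP, a log2FC of -0.11 (95% interval -0.45 to 0.23, edgeR). *Hsp70-2*, a cytosolic heat shock protein gene, had 523, 738 and 518 CPM in *myb107-2* after 48 h of cold, against 703, 600 and 452 CPM at 11 DAP. On the list of 20 cold response genes, 0 met the age limit, so the members hold none of them. In *myb107-2* cold, 5 of the 20 were called higher and 0 lower.

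The 16 remaining members are of other or unknown function, and 2 of them, AT3G15450 and AT3G22540, were called lower in *myb107-2* cold. *PGN*, a pentatricopeptide repeat gene, had 4226, 5037 and 3484 CPM after 48 h of cold, 407, 1019 and 782 CPM at 13 DAP and 2977, 2792 and 3263 CPM at 11 DAP in WT. In *myb107-2* its groups overlapped, with 3028, 3526 and 2336 CPM after 48 h of cold against 2622, 3004 and 2841 CPM at 11 DAP. *PGN* contains the whole of *SVB* on the other strand, 1123 bases long, which was at 0 in all 18 libraries, so it cannot be told apart which of the 2 genes these counts belong to. In the same way AT1G77230 shares 1811 bases with *AAE2*, which was at 0 throughout. AT5G42235, an uncharacterized gene, had 51.4, 47.1 and 40.1 CPM after 48 h of cold, 2.17, 6.12 and 3.03 CPM at 13 DAP and 45.1, 34.7 and 34.9 CPM at 11 DAP in WT.

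The early response was read from WT seeds 6 h after transfer, which share their WT 11 DAP libraries with the selection. At 6 h few members differed from their starting level by the test. The median of the members per library was 50.9 to 63.9 CPM at 11 DAP, 50.8 to 64.6 CPM after 6 h and 47.5 to 58.3 CPM after 48 h of cold, with overlapping ranges. Between 6 h of cold and 11 DAP, 2 of 79 members were called lower and 0 higher, against 0.876% lower and 0.492% higher over 26245 genes, and the members' median log2FC was -0.03 against -0.01 over all genes. Of the 341 others, 34 were called lower and 0 higher, with a median of -0.43. At an unadjusted p under 0.05 there were 22 members, against 131 of the 341 others and 4315 of all 26245 genes. *ACA13*, a calcium pump gene, had 22.9, 41.8 and 37.1 CPM after 6 h, against 90.9, 102 and 54.1 CPM at 11 DAP, and fell by a log2FC of -1.32 (SE 0.27, adjusted p = 0.02, edgeR). Its call was lost when replicate 1 or 2 of WT 11 DAP, or replicate 2 or 3 of WT 6 h cold, was left out, with an adjusted p of up to 0.091.

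*Hsp70-2* had 490, 397 and 380 CPM after 6 h, against 890, 1157 and 799 CPM at 11 DAP, and fell by 1.21 (SE 0.21, adjusted p = 0.0085, edgeR). It lost the call without replicate 2 of WT 6 h cold (adjusted p = 0.059). After 48 h of cold both were near their 11 DAP values, with 104, 62.5 and 76.8 CPM for *ACA13* and 950, 1124 and 779 CPM for *Hsp70-2*, as their selection required. *SYP111* had 228, 161 and 172 CPM after 6 h, all above its 3 WT 11 DAP libraries, but the log2FC of 1.01 did not pass the test (adjusted p = 0.076, edgeR). *SYP111*, the dehydrin gene AT4G38410 and AT5G42235 were called higher by DESeq2 and in the edgeR fit of all 18 libraries. In all 79 members the 3 WT 6 h cold libraries lay above the 3 WT 13 DAP libraries, against 322 of the 341 others and 31.2% of 24833 genes. The selection had required low WT 13 DAP values, so these counts are a description.

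Between the genotypes after 48 h of cold, the members leaned lower in *myb107-2*. The selection had required high values in the WT 48 h cold libraries, and the part of that requirement in this lean was not tested. In CPM the median member had 33.04, 41.1 and 34.2 CPM in the *myb107-2* 48 h cold libraries, against 56.0, 58.3 and 47.5 CPM in the WT 48 h cold libraries, and these did not overlap. By edgeR, 14 of 79 members (17.7%) were called lower and 0 higher, against 1.14% lower and 0.706% higher over 26068 genes. Among the 341 other genes that met the age limit, 51 (14.96%) were called lower and 4 higher. The median log2FC was -0.65 for the members and -0.67 for the 341 others. At an unadjusted p under 0.05 there were 58 members, against 208 of the 341 others and 3435 of all 26068 genes. The 95% interval lay wholly between -1 and 1 for 33 of the 79 members, 96 of the 341 others and 13693 of all genes. In CPM, 45 of the 79 members had all 3 *myb107-2* libraries under all 3 WT libraries after 48 h of cold, against 130 of the 341 others and 9.06% of 24240 genes.

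**Figure D5:**
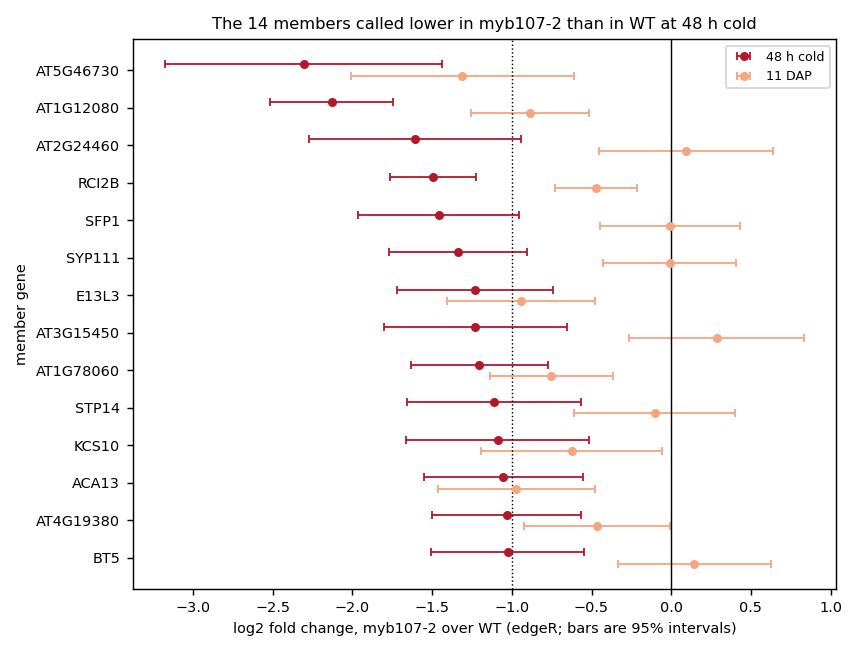
Log2FC of *myb107-2* over WT (edgeR, points with 95% intervals) for the 14 members called lower in *myb107-2* after 48 h of cold, at 48 h cold in dark red and at 11 DAP in light red, with dotted and solid lines at -1 and 0. AT1G12080 is at -2.13 after 48 h of cold and -0.89 at 11 DAP, and *SYP111* at -1.34 and -0.01.

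The smallest p-values after 48 h of cold belonged to *RCI2B*, AT1G12080, *SYP111* and *SFP1*. *RCI2B*, with the library values given above, was lower by a log2FC of -1.49 (SE 0.13, adjusted p = 3.9e-06, edgeR), and AT1G12080 by -2.13 (SE 0.18, adjusted p = 3.9e-06, edgeR). *SYP111* was lower by -1.34 (SE 0.20, adjusted p = 0.001, edgeR) and *SFP1* by -1.46 (SE 0.24, adjusted p = 0.0019, edgeR). These 4 calls held when each library of the comparison was left out. The number of calls itself rested on single libraries: 22 members were called without replicate 3 of WT 48 h cold, 8 without replicate 1 and 7 without replicate 3 of *myb107-2* 48 h cold. *ACA13* (-1.06, adjusted p = 0.02, edgeR) was lost without replicate 1 of WT 48 h cold and without replicate 1 or 3 of *myb107-2* 48 h cold. *KCS10* was called lower too, with 307, 398 and 257 CPM in *myb107-2* against 866, 878 and 384 CPM in WT (log2FC -1.09, adjusted p = 0.038, edgeR).

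At 11 DAP, before any cold, 3 of 79 members passed the test towards lower *myb107-2* levels and 0 towards higher ones, against 0.717% lower and 0.180% higher over 26068 genes, and 48 of the 341 others were called lower. The 3 were *LHY*, *CCA1* and AT2G25890, the last with the uncertainty given above. None of the 14 members called after 48 h of cold was called at 11 DAP. Without the limits of a call, the members leaned lower in *myb107-2* at 11 DAP too, with 68 of 79 under 0. The same held for 294 of the 341 others and 12823 of all 26068 genes. The selection had used the WT 11 DAP values, and the part of that use in this lean was not tested. The median log2FC was -0.36 for the members, against -0.57 for the 341 others. At an unadjusted p under 0.05 (edgeR) there were 36 members, against 204 of the 341 others and 3429 of all 26068 genes. Among the 14, AT1G12080 was at -0.89 (adjusted p = 0.018, edgeR) and *SYP111* at -0.01. By the interaction term, which tests the cold difference in *myb107-2* against that in WT, 2 members passed an adjusted p of 0.05 downwards (*RCI2B* and AT1G12080) and 1 upwards (AT2G25890), against 0.0767% and 0.203% of 26068 genes, and the WT part of that term was used in the selection. In the comparison of the genotypes at 11 DAP, 9 members were called lower without replicate 3 of WT 11 DAP, and 6 without replicate 1 of *myb107-2* 11 DAP.

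The members were also compared for features that the rule did not use. All 79 are protein-coding, with a median gene length of 1929 bases and a median of 3 exons. Over 22546 protein-coding genes with a count, the medians were 2244 bases and 4 exons. In 334 of the other genes that met the age limit they were 1883.5 bases and 3 exons, close to those of the members. The members lie on all 5 chromosomes, with 26 on chromosome 1 (32.9%, against 26.3% of the 22546 genes) and 12 to 15 on each of the others. Of the 79, 20 overlap another annotated gene, which makes their counts less certain, and in *CAB2* and *NSP1* over 10% of the 50-base exon stretches are repeated in the genome.

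Letters of 6 known elements were counted on both strands in the 300 bases from 250 before to 50 after each annotated start. This was done for the members, for 334 of the other genes that met the age limit and for 27444 protein-coding genes. No element contains another. CCGAC, the core of the cold-responsive element bound by CBF factors, was in 16 of 79 member windows (20.3%) and in 15.05% of all windows. CACGTG was in 5 members (6.33%, against 7.68%), which were *LHY*, *CCA1*, *LNK3*, AT2G25890 and AT3G07255. AAATATCT was in 9 (11.4%, against 5.65%) and GATAAG, the I-box core, in 18 (22.8%, against 14.6%). AAACCCTA, known as the telo-box, was in 1 (1.27%, against 6.22%) and TGGGCC in 8 (10.1%, against 15.5%). Among the 334 other genes, the shares were 8.38% for CCGAC, 6.29% for CACGTG and 5.69% for AAATATCT. They were 12.6% for GATAAG, 2.69% for AAACCCTA and 6.89% for TGGGCC. AAACCCTA and TGGGCC were thus rarer than over all windows in these 334 genes as well as in the members. These shares are descriptions without a test.

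The remaining lists held no member or one. Of 18 flavonoid and proanthocyanidin genes, 6 met the age limit and 0 were members, and 7 were called lower and 5 higher in *myb107-2* cold. Of 20 matched mucilage and seed coat epidermis genes, 4 met the age limit and *PER36* alone was a member, and 2 were called lower and 0 higher. Of 14 matched cell wall expansion genes, 0 met the age limit, and of the 12 tested 3 were called lower and 3 higher. Of 30 suberin and lignin genes, 0 met the age limit, and 0 were called lower and 12 higher in *myb107-2* cold than in *myb107-2* at 11 DAP. Against WT, 17 of the 30 were called lower in *myb107-2* at 48 h cold and 9 at 11 DAP, with 0 higher in both.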

How the data were processed

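Dissected seed coats with endosperm were sequenced as stranded polyA libraries. The authors cleaned the reads and used HISAT2 for alignment and StringTie for quantification. DESeq2 is also named in the submitters' processing notes. Versions, genome build and annotation are not given in the sources used here. The deposited values are counts per gene, whole numbers without normalization. Of 37985 rows, 37883 were nuclear genes. In these, 22 genes that held a date in 5 libraries were left out, which leaves 37861 (26954 with a count). The rows that name no nuclear gene held a median of 0.851% of the counts and stayed out of totals and tests. A count of 3, the floor used here, corresponds to 0.0357 to 0.0695 CPM, and this floor covers counting error only. The intervals of fold changes come from the edgeR fits and also carry the spread between libraries.

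The members and lists were chosen with earlier results of these data known. Levels are CPM by column sums. Tests were edgeR 4.0.16's quasi-likelihood F-test (R 4.3.3) with TMM scaling, in a genotype fit of the 12 libraries taken at 11 DAP or 48 h cold (26068 genes), and a fit of the 12 WT libraries (26245 genes). P-values were adjusted by Benjamini-Hochberg over all genes, with calls at 0.05 and a log2 fold change of 1. The fits were tested on simulated data. Alternatives were DESeq2 1.42.0, RLE scaling, filterByExpr, all 18 libraries in 1 fit, a replicate block, edgeR's legacy method, each library left out in turn, and other limits of the rule.

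Genes named are the 8 most abundant members in WT 48 h cold, the 8 with the lowest age difference, the called members with the smallest p in each direction (5 for the cold comparison in *myb107-2*, 4 for the genotypes at 48 h cold and 4 for 6 h of cold), the members on a gene list and the 3 at each side of the age limit. Other members were picked for mention by role, and the roles grouped, after their values were seen. Of 264 list symbols, 256 matched the RefSeq annotation. Gene positions, products and promoter sequence are from RefSeq's TAIR10.1, which holds all 79 members. CPM were computed with Python 3.11.15.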

Additional observations from a re-analysis of the deposited data

Results flagged for a closer look

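In 3 members the cold difference in *myb107-2* was not the same as that in WT by the interaction term of edgeR's genotype fit, at an adjusted p of at most 0.05 over 26068 genes (0.0767% more negative and 0.203% more positive in *myb107-2* over all genes). The WT part of this term was used to choose the members. AT2G25890 had an interaction of 12.85 on the log2 scale (adjusted p = 9e-05), a fitted value that depends on the prior count because the gene was at 0 in all *myb107-2* 11 DAP libraries. The call held in all 17 alternatives, but these used the same division of reads between AT2G25890 and *AUR2*. They cannot show whether the zeros are real, which is uncertain as given above. *RCI2B* had an interaction of -1.02 (standard error 0.17, adjusted p = 0.019), with a *myb107-2* cold difference of -1.52 and a WT difference in L of -0.47. It lost the call in 8 of 17 alternatives, 7 of them with 1 of the 12 libraries left out, where the adjusted p reached up to 0.087, and it had an adjusted p of 0.19 with all 18 libraries in the fit. AT1G12080 had an interaction of -1.24 (standard error 0.25, adjusted p = 0.05) and lost the call in 13 of 17 alternatives, with an adjusted p between 0.0084 and 0.23.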

How the results depend on the processing

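Of 20 calls of single named members, 15 held in all 12 alternatives run for them, and of 240 values 227 kept direction and call, 13 lost the call and 0 changed sign. With 1 library left out in turn, the members called lower in *myb107-2* cold numbered 9 to 12 and those called higher 4 to 6, and the 341 other genes called lower 231 to 260. In the same way, after 6 h of cold 0 to 2 members were lower and 0 higher, between the genotypes at 48 h cold 7 to 22 were lower and 0 higher, and at 11 DAP 2 to 9 were lower and 0 higher. After 6 h of cold, 3 members were called higher with DESeq2, 3 with all 18 libraries and 1 (*SYP111*) with the replicate block, and of the 33 members under TMM-scaled CPM 0 were called lower. The replicate numbers did not pair the libraries, with correlations of same-numbered deviations from -0.21 to 0.07 over the 4 comparisons, and the replicate block moved no other count by over 1.5 times. The number of members was 33 with TMM scaling, 202 with an offset of 0.1 (78 of the 79 among them), 263 with an age limit of -1.5, 29 with a cold limit of 0, and 47 to 128 with 1 of the 9 WT libraries left out. The highest, 128, was without replicate 2 of WT 13 DAP. The cause of these differences was not tested beyond the scaling given with the members. With 3 libraries a group, the smallest differences called depended on the size limit of 1 on the log2 scale and on the adjusted p. Examples past the size limit but not called were *SYP111* (1.01, adjusted p = 0.076, edgeR) and AT4G38410 (1.13, adjusted p = 0.08, edgeR) after 6 h of cold. Further examples were *UMAMIT14* after 6 h of cold (-1.11, adjusted p = 0.18, edgeR) and between the genotypes at 48 h cold (-1.10, adjusted p = 0.057, edgeR). The *myb107-2* cold difference had a median standard error of 0.21 over the members.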
